A study of Sus scrofa with 48 samples.

Results

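Toll-like receptors (TLR) are membrane sensors of microbial molecules, and most of them signal through the adaptor MYD88. MYD88 recruits the interleukin-1 receptor-associated kinases (IRAK), which hand the signal to TRAF6, a ubiquitin ligase, and from there to the NF-κB and AP-1 transcription factors that switch on cytokine genes. In fat tissue, both adipocytes and resident macrophages express parts of this pathway. The 9 genes described here are the receptors TLR2, TLR4 and TLR8, the adaptor MYD88, the kinases IRAK1, IRAK2, IRAK3 and IRAK4, and TRAF6. Every array probe named for one of them was taken, which gave 9 of the 11402 genes with a symbol and 20 of the 60305 distinct probes of the array. The genes were chosen by the diet difference of their probes in these same pigs, so the diet differences are given as a description, without a test. The line difference and the interaction were not used in that choice and were tested.

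The tissue was perirenal adipose tissue (PRAT), the fat depot next to the kidneys, of 48 pigs aged 132 days by their labels. The pigs belonged to a line selected for low residual feed intake (low RFI, labelled RFIneg) or to one selected for high RFI (RFIpl). Residual feed intake is the feed eaten beyond that predicted from growth and maintenance, so low RFI pigs are the more efficient. In each line, 12 pigs were fed freely on a high-fat, high-fiber (HF) diet and 12 on a low-fat, low-fiber diet rich in starch (LF), and each pig had its own one-colour array. All pigs were barrows of the Large White breed. A level is log2 of the spot's median signal minus the median of all probes on that array. Levels of different probes cannot be set against each other, because each probe binds with its own strength. A diet difference is the HF level minus the LF level, with its standard error (SE) from the limma fit over all probes. A probe was called when its raw p was under 0.01, its fold change over 1.1 and its Benjamini-Hochberg (BH) adjusted p under 0.08.

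Between 38875 and 47813 probes per array were well above background, the median signal lay between 115 and 178 scanner units, and no spot was saturated. The arrays lay on 6 slides, each with 2 arrays of every group. Of the 20 probes, 15 stood well above background on each of the 48 arrays. The dimmest were the TLR8 probe, on 21 arrays, and the TLR4 probe A_72_P444577, on 29. The authors had kept 16 of the 20 in their normalized table and had left out 1 probe each of TLR4, TLR8, IRAK3 and IRAK4. The 8 adipocyte markers, which include adiponectin and perilipin 1, were well above background on every array. Of the kidney markers, SLC12A1 was so on no array, LRP2 on 1 and AQP2 on all of them.

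The diet difference of IRAK2 differed widely between its pair of probes. IRAK2 is the kinase that sustains the signal after IRAK4 and IRAK1 have started it. The probe O1964 was lower by 2.22 ± 0.25 (SE) on the log2 scale in HF pigs, a 4.65-fold difference. The probe A_72_P262227 was lower by 0.205 ± 0.052, or 1.15-fold. These were the 2 called probes of the 20, both lower in HF pigs, where 17.6% of all probes were called for diet and 11.4% were called lower. No probe of the 20 was called higher in HF pigs, where 6.22% of all probes were. The median difference was 0.016 over the 20 probes and -0.039 over all probes.

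The sequences of both IRAK2 probes are shown with that of PTGDS, the gene whose levels lay closest to those of O1964. They are read 5′ to 3′ from the scanner files. Capitals in O1964 and PTGDS mark the longest run of letters they share on the same strand. In A_72_P262227, of which bases 9 to 38 of 60 are shown, they mark the letters AATAAA, the usual signal for the end of a messenger RNA.
O1964: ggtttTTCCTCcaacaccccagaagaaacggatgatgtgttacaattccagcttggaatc
A_72_P262227: tgttttcagaataattattaAATAAActca
A_72_P223832 (PTGDS): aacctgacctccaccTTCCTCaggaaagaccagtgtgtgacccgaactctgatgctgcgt
The shared run of O1964 and PTGDS held 6 letters, and 51.3% of the other probes share a run at least as long with that PTGDS probe. The letters AATAAA, searched on the printed strand, occur in 10.3% of all probes and in 2 of the 20. A probe outside the 20 with no gene symbol, A_72_P364678, overlaps A_72_P262227 by 49 bases.

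At O1964, the 12 HF low RFI pigs ranged from -0.82 to 1.46 with a median of 0.11, and the 12 HF high RFI pigs from -0.50 to 2.33 with a median of -0.15. The 12 LF low RFI pigs ranged from 0.97 to 4.04 with a median of 2.26, and the 12 LF high RFI pigs from 1.33 to 4.17 with a median of 2.83. All 24 HF pigs lay below the mean of the LF pigs, and 17 of them lay below every LF pig, but the diets overlapped between 0.97 and 2.33. The median signal was 168 scanner units in HF pigs and 796 in LF pigs.

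By group mean and SD (n = 12 each), the order at O1964 was LF high RFI with 2.78 ± 1.04, LF low RFI with 2.32 ± 0.85, HF high RFI with 0.46 ± 0.995 and HF low RFI with 0.21 ± 0.74. Within a diet, the lines differed by less than their SD. The diet difference was -2.11 in low RFI pigs and -2.32 in high RFI pigs. Taken on each slide alone, it lay between -2.66 and -1.56, so that HF pigs were lower on 6 of 6 slides.

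At A_72_P262227, the medians were 3.39 in both HF groups, 3.56 in LF low RFI pigs and 3.54 in LF high RFI pigs. HF pigs ranged from 2.96 to 3.68 and LF pigs from 3.31 to 3.91. The diets overlapped between 3.31 and 3.68, but 21 of 24 HF pigs were under the LF mean and 10 under every LF pig. The difference was lower in HF pigs on 6 of 6 slides, from -0.32 to -0.017. The overlapping probe A_72_P364678 differed by -0.196 ± 0.048 and was called too.

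**Figure D1:**
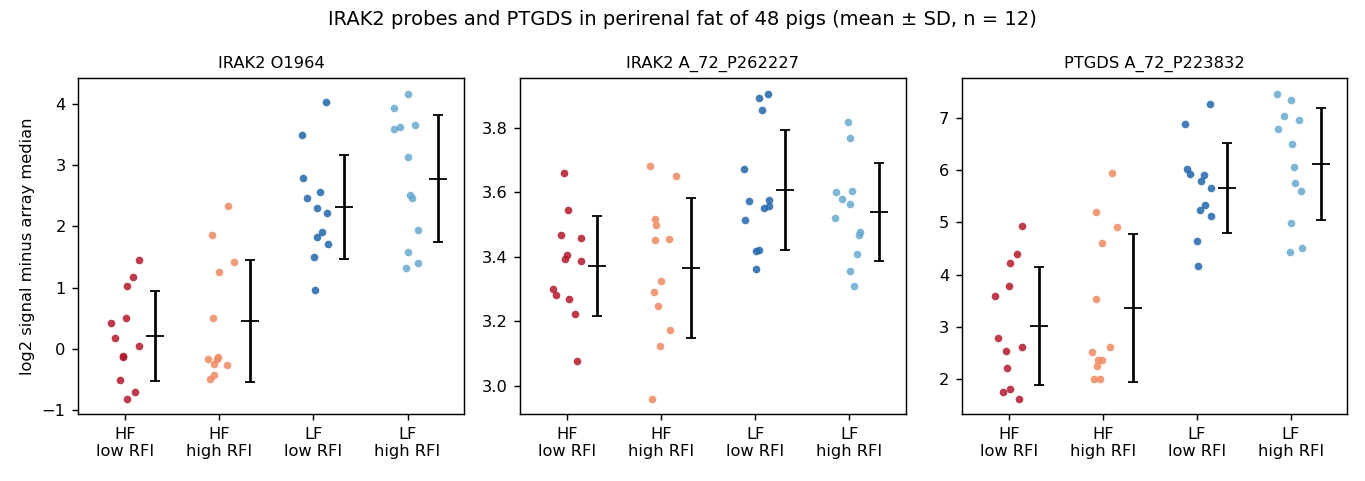
Levels (log2 signal minus the array median, each panel with its own vertical scale) of the IRAK2 probes O1964 and A_72_P262227 and of PTGDS, with 1 point a pig and the mean ± SD of 12 pigs beside each group. HF pigs lie lower at O1964 and PTGDS with partial overlap, while at A_72_P262227 HF pigs range from 2.96 to 3.68 and LF pigs from 3.31 to 3.91.

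Within a diet, the levels of the IRAK2 probes showed no detectable relation to each other. In the 24 HF pigs, Pearson's r was 0.024 (permutation p = 0.91, BH 0.91) and Spearman's rho was 0.015 (permutation p = 0.95, BH 0.95). In the 24 LF pigs, r was 0.30 (permutation p = 0.16, BH 0.31) and rho was 0.37 (permutation p = 0.074, BH 0.15). Without the 2 pigs farthest from the median of O1964, r was 0.23 in HF pigs and 0.20 in LF pigs. The 2 tests were adjusted together, with 100000 two-sided permutations each.

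The levels of O1964 instead lay close to those of PTGDS, which encodes the lipocalin-type prostaglandin D2 synthase. After removal of the 4 group means, r over the 48 pigs was 0.971 with the PTGDS probe A_72_P223832, the highest of all genes with a symbol. A second PTGDS probe, O9061, holds the same 60 letters and gave 0.969. These were the 2 probes of 60304 with r over 0.9. Since PTGDS was picked as the highest, this is a description without a p. Taken within a diet, r between O1964 and PTGDS was 0.986 in HF pigs and 0.988 in LF pigs, and 0.981 and 0.988 without the 2 pigs farthest from the median. Their rho was 0.950 and 0.990.

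PTGDS differed by -2.70 ± 0.32 between diets, or 6.51-fold. By size, the PTGDS probes and O1964 held the 3 largest falls in HF pigs of all 60305 probes. Further genes with a high r with O1964 were FNDC8 (0.786), GAPDHS (0.779) and the glycolytic gene GAPDH (0.758). By contrast, the other IRAK2 probe had an r of 0.195 with O1964 and ranked 19636 by it. A_72_P106241, which the array describes as similar to bovine IRAK2 and which is not among the 20, had an r of 0.23 with O1964 and a diet difference of -0.097 ± 0.044, which was not called. On the array, the PTGDS spots lie 1 row and 85 columns, or 230 rows, away from O1964. Which transcripts bind O1964 in this tissue was not tested.

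**Figure D2:**
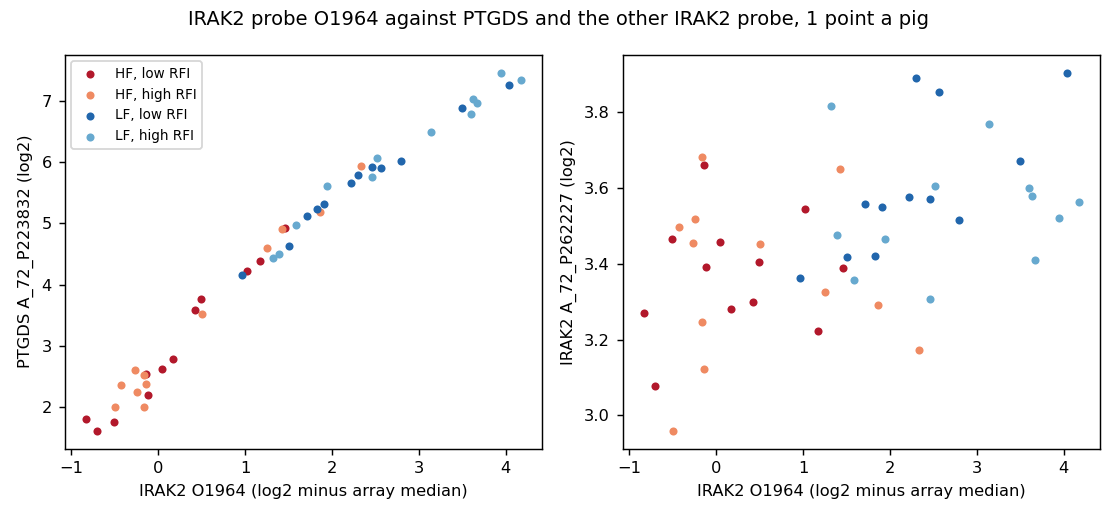
Each point is 1 pig, with its O1964 level on the horizontal axis and, on the vertical axis, its PTGDS level (left) or its level at the other IRAK2 probe (right), all as log2 signal minus the array median, coloured by group. The points follow a line with PTGDS in both diets (r 0.986 and 0.988) and scatter against A_72_P262227 (r 0.024 and 0.30).

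The other IRAK genes differed little between diets. IRAK4, the kinase nearest to MYD88, differed by 0.0036 ± 0.054 at O12189 and by 0.0013 ± 0.052 at A_72_P165736. IRAK1, its first substrate, differed by -0.063 ± 0.039. IRAK3, an inhibitor of the pathway best known from macrophages, differed by 0.0029 ± 0.062 at O2731 and by 0.056 ± 0.048 at A_72_P244557.

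MYD88 had 3 probes, with differences of -0.035 ± 0.045 at A_72_P245972, 0.027 ± 0.066 at O4729 and 0.0050 ± 0.048 at A_72_P088111. None of these IRAK1, IRAK3, IRAK4 and MYD88 probes was called. At the brightest MYD88 probe, HF pigs ranged from 5.61 to 6.24 with a median of 5.96, and LF pigs from 5.72 to 6.29 with a median of 5.95. At the brightest IRAK4 probe, O12189, HF pigs ranged from 3.14 to 3.72 and LF pigs from 3.02 to 3.82, with a median of 3.41 in both diets. The diets overlapped almost completely at both.

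The receptor probes had positive differences at all 8, and none was called. With arrays centred on spike-in spots, which moved the median difference of all probes from -0.039 to 0.086, 5 of the 8 were called, and with the background-subtracted signal 1 was, TLR4 A_72_P419074 with 0.41. TLR4, which senses bacterial lipopolysaccharide, had differences from 0.089 to 0.262 over its 5 probes. At its brightest probe, A_72_P444572, the medians were 2.14 in HF low RFI, 2.096 in HF high RFI, 1.83 in LF low RFI and 1.81 in LF high RFI pigs. HF pigs ranged from 1.38 to 3.15 and LF pigs from 0.81 to 2.77, so that the diets overlapped widely. The difference there was 0.26 ± 0.11, with 0.078 on the slides of the first scan day and 0.45 on those of the second. TLR2, which senses bacterial lipoproteins, differed by 0.25 ± 0.15 at A_72_P088356 and by 0.134 ± 0.080 at O12067. At A_72_P088356, HF pigs ranged from 0.081 to 2.15 with a median of 0.98, and LF pigs from -0.045 to 1.74 with a median of 0.72. TLR8, a sensor of single-stranded RNA, differed by 0.112 ± 0.069 at a probe that was well above background on 21 arrays.

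**Figure D3:**
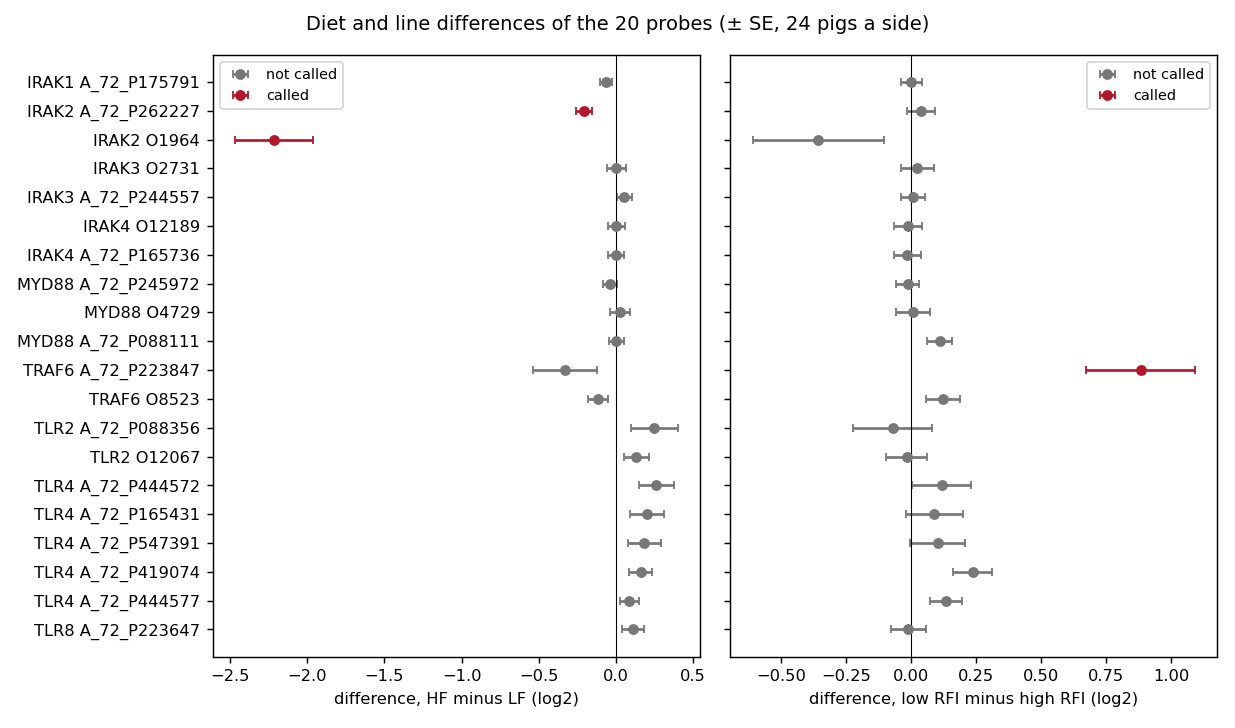
Difference of each of the 20 probes on the log2 scale (points) with its SE (bars), HF minus LF on the left and low RFI minus high RFI on the right, 24 pigs a side, red where called. O1964 stands apart at -2.22 on the left, the 8 receptor probes lie between 0.089 and 0.262 on the left, and TRAF6 A_72_P223847 stands apart at 0.88 on the right.

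Macrophage markers moved with diet in the same pigs. Of 12 measured markers, 9 were called higher in HF pigs, where 5.17% of all genes were, with a median difference of 0.57 over the 12 and of -0.051 over all genes. The called markers C1QA, C1QB, C1QC and VSIG4 also stand in a list that the study chose on these pigs from genes changed by diet. They are no independent evidence of a direction. The mean level of the 12 ranged from 1.84 to 4.13 in HF pigs and from 1.66 to 3.78 in LF pigs. CD163, MRC1 and C1QA, which mark resident macrophages, differed by 0.70 ± 0.24, 0.66 ± 0.21 and 0.80 ± 0.25. CD68, CD14 and MSR1 were the 3 markers not called, and 11 of the 12 were well above background on all arrays. In bulk tissue, fewer cells of a type and less RNA per cell cannot be told apart. T and NK cell markers had 2 of 9 called higher, and 0 of 6 neutrophil, 0 of 4 B cell and 0 of 5 endothelial markers were called by limma or the two-way ANOVA, with 1, 0 and 1 of them at a raw p under 0.05. None of the 3 adrenal and 5 skeletal muscle markers was called by either, with 0 and 2 at a raw p under 0.05. Adipocyte markers had 3 of 8 called lower by limma, LEP, PPARG and CIDEC, where 16.9% of all genes were. The two-way ANOVA called 2 of the 8. PPARG differed by -0.186 ± 0.069 (limma BH adjusted p = 0.0499), with 2 of its 4 probes called. The paper reports it as higher in HF pigs by qPCR. Of the 3 measured kidney markers, AQP2 differed by -0.63 ± 0.13, with 1 of its 2 probes called. SLC12A1 and LRP2 differed by -0.070 ± 0.058 and -0.081 ± 0.059 and were not called. The part of these cell types in the receptor values was not tested.

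The TLR2 and TLR4 levels varied together from pig to pig. After removal of group means, r lay between 0.69 and 0.95 over the 10 pairs of TLR4 probes (rho 0.61 to 0.93, largest permutation p = 1e-05 for r, the smallest that 100000 permutations can give, BH 1.38e-05), and without the 2 farthest pigs the lowest r was 0.63. For the TLR2 pair, r was 0.91 and rho 0.88 (permutation p = 1e-05 for r, BH 1.38e-05). Between TLR2 and TLR4 probes, r lay between 0.54 and 0.70, and between TLR8 and the brightest TLR2 probe it was 0.52, given here as a description. Between TLR8 and the 5 TLR4 probes, r lay between 0.023 and 0.16. Among all genes, the one closest to TLR2 was C5AR1 (r 0.93), the complement C5a receptor of myeloid cells. The gene closest to the brightest TLR4 probe was VSIG4 (0.77), a macrophage receptor, and that closest to TLR8 was PSTPIP1 (0.77).

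Among the kinases and the adaptor, probes of the same gene were compared as well. The IRAK4 pair had an r of 0.87 and a rho of 0.86 (permutation p = 1e-05 for r, BH 1.38e-05). The 3 pairs of MYD88 probes lay between 0.43 and 0.58 (rho 0.43 to 0.62, largest permutation p = 0.0022 for r, BH 0.0025). For the IRAK3 pair, r was 0.14 and rho 0.25 (permutation p = 0.34 for r, BH 0.34), and without the 2 farthest pigs r was 0.26. In all, 18 pairs of probes of the same gene were compared. A further spot outside the 20 holds the same 60 letters as IRAK3 O2731, and r between those identical spots was 0.18. With such a twin, r was 0.55 for IRAK1 A_72_P175791, 0.90 for MYD88 A_72_P245972 and 0.97 for the TLR4 probe A_72_P165431. The genes closest to the brightest probes were FBXO7 for MYD88 (r 0.72), G6PC3 for IRAK1 (0.81) and CPB1 for IRAK3 (0.71). At IRAK3 O2731, 1 LF low RFI pig stood at 0.73, above every HF pig (highest -0.055). CPB1 was dim, with a mean level of -1.77, and its r without that pig was not tested.

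**Figure D4:**
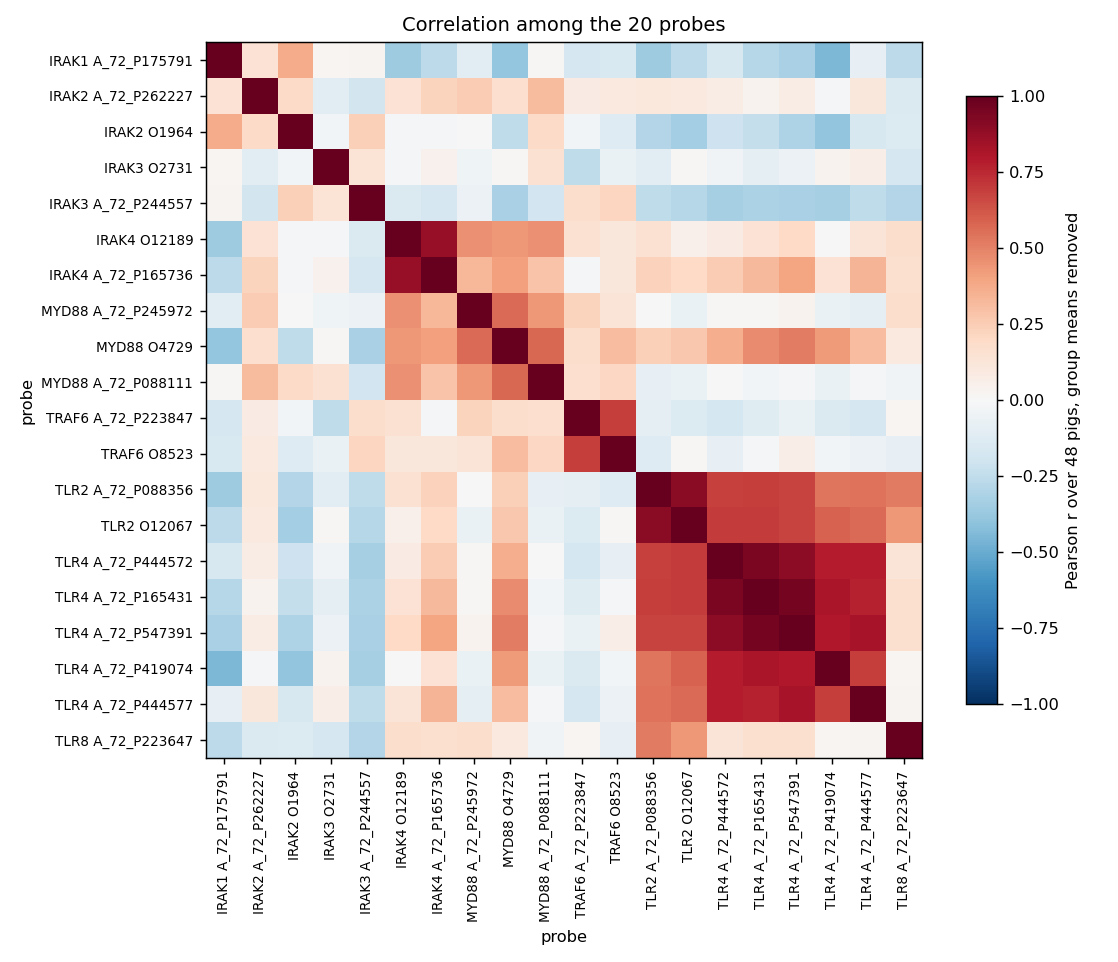
Pearson's r between each pair of the 20 probes over the 48 pigs after removal of the 4 group means, from blue (-1) to red (1). The TLR2 and TLR4 probes form a red block (0.54 to 0.95), the IRAK4 and MYD88 probes a paler one, and O1964 and the IRAK3 probes stay pale against the other probes of their own gene (0.20 and 0.14).

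Between lines, 1 of the 20 probes was called, where 2.17% of all probes were. This was TRAF6 A_72_P223847, with a level 0.88 ± 0.21 (SE) higher in low RFI pigs, or 1.84-fold (limma p = 0.00011, BH adjusted p = 0.0127). The mean level and SD was 4.47 ± 0.58 in the 24 low RFI pigs and 3.58 ± 0.92 in the 24 high RFI pigs. Its sequence, and that of the second TRAF6 probe, O8523, are shown to tell the probes apart. They are printed 5′ to 3′ and wholly in lower case, since no part of either is singled out.
A_72_P223847: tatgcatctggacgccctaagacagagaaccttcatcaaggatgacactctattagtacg
O8523: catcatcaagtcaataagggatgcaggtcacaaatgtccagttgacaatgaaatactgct

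At A_72_P223847, the HF low RFI pigs ranged from 3.82 to 4.79 with a median of 4.57, and the HF high RFI pigs from 2.34 to 4.71 with a median of 3.22. The LF low RFI pigs ranged from 2.43 to 5.25 with a median of 4.83, and the LF high RFI pigs from 2.59 to 5.02 with a median of 4.11. The pigs fell into separate clusters, with 11 pigs between 2.34 and 2.77 and 37 pigs between 3.69 and 5.25, and no pig in between. The lower cluster held 10 of the 24 high RFI pigs and 1 of the 24 low RFI pigs, and it held 6 HF and 5 LF pigs. Its pigs came from all 6 slides. The line difference was 1.17 in HF pigs and 0.60 in LF pigs. With the diets fitted alone, it was called in HF pigs (limma BH adjusted p = 0.0186) and not in LF pigs (BH adjusted p = 0.93), and the test of the difference between them gave 0.57 ± 0.42 (limma p = 0.18, BH adjusted p = 0.9999). Low RFI pigs were higher on 5 of 6 slides, with differences from -0.069 to 1.31.

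The second TRAF6 probe, O8523, differed by 0.123 ± 0.063 between lines, which was not called (limma p = 0.058, BH adjusted p = 0.54). Low RFI pigs ranged from -0.057 to 0.77 with a median of 0.30, and high RFI pigs from -0.17 to 0.95 with a median of 0.12, so that the lines overlapped almost fully. Over the 48 pigs, after removal of group means, r between the TRAF6 probes was 0.69 and rho 0.68 (permutation p = 1e-05 for r, BH 1.38e-05). At O8523, the pigs of the lower cluster lay between -0.17 and 0.13 and those of the upper cluster between -0.010 and 0.95. Because of the clusters, the relation of the TRAF6 probes is also given within each. In the 11 pigs of the lower cluster, r was 0.23 (permutation p = 0.49, BH 0.49) and rho 0.24 (permutation p = 0.49, BH 0.49). In the 37 pigs of the upper cluster, r was 0.56 (permutation p = 0.00019, BH 0.00038) and rho 0.58 (permutation p = 0.00025, BH 0.00050). Without the 2 farthest pigs r was 0.32 and 0.58. By diet, the TRAF6 probes differed by -0.33 ± 0.21 and -0.116 ± 0.063, and neither was called.

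**Figure D5:**
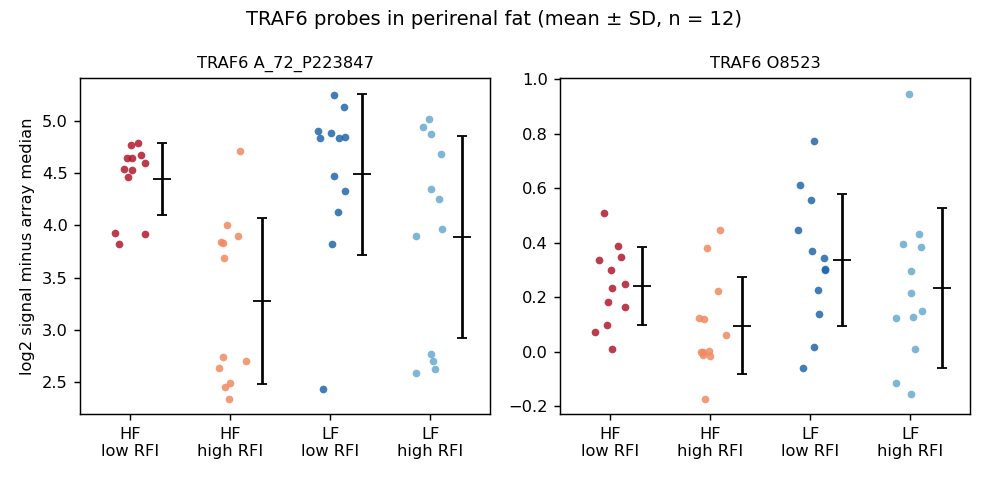
Levels (log2 signal minus the array median, each panel with its own scale) of both TRAF6 probes, with 1 point a pig and the mean ± SD of 12 pigs beside each group. At A_72_P223847 a gap separates 11 pigs below 2.77, of which 10 are high RFI pigs, from 37 pigs above 3.69. O8523 shows no such gap, but the same 11 pigs lie low there, between -0.17 and 0.13, and overlap the other 37.

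The probe whose residuals lay closest to A_72_P223847 has no gene symbol and shares a run of at most 5 letters with it. In the lower cluster r between them was 0.52 and in the upper cluster 0.88, given as a description. With O8523, the residuals of the unnamed probe had an r of 0.79. That unnamed probe differed by 0.364 ± 0.091 between lines (limma BH adjusted p = 0.020). SLC48A1, a heme transporter, was the gene with a symbol closest to A_72_P223847.

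No other of the 20 probes was called for line. The next was the TLR4 probe A_72_P419074, 0.237 ± 0.077 higher in low RFI pigs (limma p = 0.0033, BH adjusted p = 0.12), and 19 of 24 low RFI pigs lay above the high RFI mean. That probe was dim, well above background on 45 arrays, and the authors had not kept it. It was called with the slide as a block (BH adjusted p = 0.078), with the replicate number as a block (0.051) and with array weights (0.077). The other TLR4 probes differed by 0.090 to 0.134 between lines. In all, 4 of the 20 probes had a raw p under 0.05 for line, and the count over all probes at that level is not given here. They were TRAF6 A_72_P223847, MYD88 A_72_P088111 and the TLR4 probes A_72_P419074 and A_72_P444577. The residuals of these TLR4 probes had an r of 0.69 with each other. O1964 was -0.36 ± 0.25 in low RFI pigs relative to high RFI pigs (limma p = 0.17, BH adjusted p = 0.74).

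Diet and line did not interact detectably at these genes. Of the 20 probes, 0 were called for the interaction by limma or the two-way ANOVA, and 0 had a raw p under 0.05 in either. The smallest p was 0.18, at TRAF6 A_72_P223847. Among all 60305 probes, 0 (0%) were called and 1677 had a raw p under 0.05. The interaction, the diet difference in low RFI pigs minus that in high RFI pigs, lay between -0.14 and 0.57 over the 20 probes, with an SE up to 0.51.

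Other genes of the pathway were taken from a list of 90, of which 75 were measured, each at its brightest probe. Of these, 7 were called higher in HF pigs and 5 lower by limma, where 5.17% of all genes were called higher and 16.9% lower, and 63 were not called. The median difference was 0.015 over the 75 genes and -0.051 over all genes. The list was drawn up with earlier results of these data known, and TLR1 and NFKBIB also stand in a list that the study chose on these pigs, so they are no independent evidence of a direction.

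Among 7 other Toll-like receptors, TLR1, the partner of TLR2, was the 1 called, higher by 0.243 ± 0.083 (n = 24 and 24, limma BH adjusted p = 0.032). Of the 8 co-receptors and chaperones, 0 were called by limma or the two-way ANOVA and 3 had a raw p under 0.05. They include CD14 and LY96, which help TLR4 to bind lipopolysaccharide. Among 7 interleukin-1 family ligands and receptors, IL1A, a ligand whose receptor also signals through MYD88, was higher by 0.201 ± 0.071 (limma BH adjusted p = 0.039). Only 1 of the 3 IL1A probes was called, and the brightest was well above background on 45 of 48 arrays. The other 6 genes were not called. Of 5 adaptors, TICAM1, which carries the MYD88-independent signal of TLR3 and TLR4, was lower by 0.363 ± 0.082 in HF pigs (limma BH adjusted p = 0.0011). Its level was under the LF mean in 22 of 24 HF pigs.

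Of 20 kinases and ubiquitin enzymes after TRAF6, 2 were called, both lower. CHUK, a kinase of the IκB kinase complex, fell by 0.241 ± 0.076 (limma BH adjusted p = 0.019), with 3 of its 4 probes called lower. MAPK9, a Jun kinase, fell by 0.225 ± 0.070 (limma BH adjusted p = 0.018), with 1 of its 2 probes called. Of 8 inhibitors, NFKBIB, which holds NF-κB in the cytoplasm, was lower by 0.294 ± 0.059 (limma BH adjusted p = 0.00031), and its level was under the LF mean in 23 of 24 HF pigs.

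Of 9 transcription factors, 3 were called higher and 1 lower. FOS and JUN, which together form AP-1, rose by 0.89 ± 0.26 (limma BH adjusted p = 0.0105) and 0.35 ± 0.11 (limma BH adjusted p = 0.0134). The FOS difference was 1.23 on the first scan day and 0.55 on the second. All 5 FOS probes and 1 of 2 JUN probes were called. IRF5, named after its value was seen, rose by 0.273 ± 0.088, and IRF7, a driver of interferon genes, fell by 0.39 ± 0.13 (limma BH adjusted p = 0.025). None of the 4 measured NF-κB subunit genes NFKB1, NFKB2, RELA and RELB was called, with differences from -0.081 to 0.048.

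Of 11 target genes, 2 were called for diet, both higher. PTGS2, the inducible prostaglandin synthase, rose by 0.66 ± 0.13 (limma BH adjusted p = 0.00037), and 23 of 24 HF pigs lay above the LF mean. IL6, an inflammatory cytokine, rose by 0.44 ± 0.12 (limma BH adjusted p = 0.0087), with 3 of its 4 probes called. Its difference was 0.69 on the first scan day and 0.20 on the second. TNF and CXCL8 differed by -0.041 ± 0.052 and -0.032 ± 0.040 and were not called.

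Between lines, 1 of the 75 genes was called at its brightest probe, where 2.32% of all genes were and 1.35% were called higher in low RFI pigs. This was SOD2, the mitochondrial superoxide dismutase and an NF-κB target, higher by 0.313 ± 0.065 in low RFI pigs (limma BH adjusted p = 0.0032). Its level was 6.44 ± 0.27 (SD) in the low RFI line and 6.13 ± 0.17 in the high RFI line (n = 24 each), and 21 of 24 low RFI pigs lay above the high RFI mean. Of the 9 SOD2 probes, 5 were called, and the line difference ranged from 0.027 to 0.617 over them. UBE2V1 and NFKB1 were not called at their brightest probe, but 1 of 2 and 1 of 3 of their probes were.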

How the data were processed

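Cy3-labelled RNA of the perirenal adipose tissue of 48 pigs was hybridised to one-colour porcine arrays. The scanner intensity values were deposited by the authors without normalization between arrays, as read by Agilent Feature Extraction 10.7.3.1 per the file headers, with flags for spots above background, saturated or outlying. A table of log2 values of 38142 probes was also deposited by the authors, who filtered the spots, took log2 and centred each array on its median in R 2.10.0, as the submitters' processing notes name it. Its values matched log2 of the median signal of 1 spot each within 1e-06, but 2 row names matched that spot, so the names of the scanner files were used. The genome build is not given in the sources used here.

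Here log2 of the median signal, without background subtraction, was centred on the median of all 60306 spots that are not controls, and the pair of spots of 1 probe was averaged. Genes were named from the files' gene names (21481 probes), accessions (2238) or synonyms (194), for 11402 genes. Diet, line and their interaction were fitted over all 60305 probes with lmFit and eBayes of limma 3.58.1, run under R 4.3.3, since the methods use a two-way ANOVA of these terms and these thresholds. In data simulated with this design, limma called 31, 45, 49 and 50 of 50 probes changed by 0.25, 0.5, 1 and 2 on the log2 scale in the diet comparison. It also called 12 unchanged probes, with 60305 tested in all. In the simulation far fewer probes changed than were called in the data, and probes varied independently, so its counts need not hold for the data. The number of arrays limits the precision. Likeness was Pearson's r of residuals from the 4 group means. Permutations shuffled pigs within a diet, group or cluster. Python 3.11.15 with numpy 2.4.6, pandas 2.3.3, scipy 1.17.1 and matplotlib 3.10.9 did the rest.

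The members, the lists of pathway genes and of markers and the tests were chosen with earlier results of these data known. Named were every member probe, in each group of the pathway list up to 2 genes with the largest rise and 2 with the largest fall among those called, any called for line, and the closest genes by likeness (5 for O1964, 1 for the brightest probe of each other gene). The results of some of the closest genes are not reported here. The marker lists covered adipocytes, endothelium, macrophages, neutrophils, B and plasma cells, T and NK cells, kidney, adrenal and skeletal muscle. Alternatives were other centrings (75th percentile, kept probes, spike-in spots, quantile normalization, background-subtracted signal, normexp with an offset of 50), filters, outlier spots left out, array weights, a block for the replicate number, the scan day or the slide, a fit with no interaction, the two-way ANOVA, a BH p under 0.05, a fold over 1.5, 1 line or diet alone, and the mean over a gene's probes. Subcutaneous fat and qPCR were not analysed here.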

Additional observations from a re-analysis of the deposited data

How the results depend on the processing

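Over the 17 alternatives fitted with both lines and diets, O1964 stayed between -2.48 and -2.00 between diets and the line difference of TRAF6 A_72_P223847 between 0.85 and 0.93. The 2 called probes for diet became 7 with spike-in centring, which moved the median of all probes from -0.039 to 0.086, 3 with the background-subtracted signal, through TLR4 A_72_P419074, and 1 with a fold over 1.5 or in high RFI pigs alone. With spike-in centring A_72_P262227 was no longer called and stood at -0.080. For line, the 1 called probe became 2 with the slide block, with array weights and with the replicate block, through the TLR4 probe A_72_P419074 (BH adjusted p = 0.078, 0.077 and 0.051), and 0 in LF pigs alone. The replicate block changed no other of these counts, with 2 probes for diet, 0 for the interaction, 12 pathway genes for diet and 1 for line. Same-numbered pigs shared a number and a slide. Of their 72 pairs, 33 had a correlation of deviations over 0.1 (median 0.077). The median was 0.054 for other numbers on the same slide and -0.015 for other slides. A pig correlated best with its own number in 40 of 144 cases, each a choice among the 12 pigs of another group. What same-numbered pigs share beyond the slide was not tested. The 12 pathway genes called for diet became 21 with spike-in centring and 2 with a fold over 1.5. The 1 called for line became 2 with spike-in centring, with the background-subtracted signal, with probes well above background, with the authors' kept probes and with gene means, and 0 with a fold over 1.5. CHUK, MAPK9, IRF7 and NFKBIB were not called with spike-in centring, nor MAPK9 and IRF7 with quantile normalization, with or without normexp. TLR8 moved to 0.50 with the background-subtracted signal. Of all called probes, 64.7% were lower in HF pigs, against 50.7% with 75th percentile centring, 48.04% with quantiles, 48.2% with normexp, 47.2% with the background-subtracted signal and 9.76% with spike-in spots. With quantile normalization and with values centred on the line mean, r of the IRAK2 probes was 0.10 and 0.027 in HF pigs and 0.27 and 0.37 in LF pigs. Without the 2 pigs farthest from the O1964 median it was 0.23 in HF pigs and 0.20 in LF pigs. No called result reversed, and the difference of IRAK1, which was not called, was 0.062 with spike-in centring. The cause of these changes was not tested, and the dim TLR8 and TLR4 A_72_P444577 probes limit what their levels can show.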
